A study of Mus musculus with 19 samples.

Results

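Interferon-stimulated genes are the genes that a cell switches on when interferons, the secreted alarm proteins of viral infection, bind their receptors. Type I interferons signal through Ifnar1 and Ifnar2 and the kinases Jak1 and Tyk2 to factors such as Stat2 and Irf9, which bind the interferon-stimulated response element (ISRE) in promoters. Interferon gamma acts through Ifngr1 and Ifngr2 on gamma-activated sites (GAS). The products block viral entry, translation and replication, tag proteins with Isg15, or feed back on the signal, and neural progenitor cells can carry many of them at low level without infection. A set of 42 such genes, given as a list of names, was followed out of 18687 genes tested in the ladder libraries. All 42 were found in the annotation and passed the filter on low counts in the comparison of genotypes and in that of library types.

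The RNA came from neural progenitor cells of mouse embryonic cortex, either wild type for Mettl14 (WT) or with its conditional knockout (cKO, here KO), grown in 20 ng/ml FGF2 and 20 ng/ml EGF. Mettl14, together with Mettl3, forms the complex that writes N6-methyladenosine into mRNA. The driver of the deletion, the age of the embryos and whether replicates were separate cultures are not given in the sources used here, so p-values measure the spread between these libraries, which may be technical. Ladder-seq libraries (4 WT, 4 KO), in which mRNA was parted by length into 7 bands with an index each before paired reads of 75 bp, were set beside 3 standard WT libraries of single reads of 50 bp, and beside nanopore assemblies of native RNA and direct cDNA that pool 2 samples per genotype and chemistry. In such bulk RNA, fewer cells of a type and less RNA per cell cannot be told apart.

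The WT ladder libraries held 103752444 to 126921887 estimated counts each, the KO ladder libraries 104899560 to 118197946 and the standard libraries 12084507 to 13987929. Mettl14 held 28.6, 23.2, 32.6 and 31.6 CPM (counts scaled to a common library size) in the WT ladder libraries and 7.02, 9.25, 7.59 and 7.92 CPM in the KO ladder libraries. The progenitor genes Vim and Fabp7 were high in every ladder library (1959 to 3073 and 2179 to 4750 CPM). The Y-linked Ddx3y lay between 0 and 0.0283 CPM in WT ladder libraries, between 3.81 and 4.94 CPM in KO ladder libraries and between 0 and 0.313 CPM in standard libraries, and Xist lay between 138 and 209.6 CPM in WT and between 44.9 and 71.1 CPM in KO ladder libraries. This difference in sex-linked genes cannot be told apart from genotype. The first standard library stood apart, with a Pearson r of log2 counts of 0.871 and 0.861 to the others, which had an r of 0.948 to each other.

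Promoter sequences from RefSeq (GRCm38.p6, 250 bases before to 50 after the start of transcription) were matched by symbol for 34 of the 42 genes, with no entry used for Mx1, Mx2, Rtp4, Parp14, Usp18, Ifi27, Parp9 and Ifi27l2a. The ISRE core, GAAANNGAAA on either strand, was found in 16 of the 34 (47.1%) and in 3.99% of all 27025 genes of the table. The GAS motif, TTCNNNGAA, whose letters read the same on both strands, was found in 8 of the 34 (23.5%) and in 9.55% of all genes. Matches of the ISRE core can overlap each other where the spacing repeats, as in Isg15 and Bst2. The windows shown here hold the core in capitals with 20 bases on either side, 5′ to 3′ on the strand of the gene, for genes that later rose (Isg15, Bst2, Ifit3, Stat2), did not pass the test (Ifit1, Rsad2, Igtp) or fell (Gbp7, Tgtp2) in KO, and none of them overlaps an annotated exon of GENCODE M21. Where the match is on the other strand, it reads TTTCNNTTTC on the strand shown.
Isg15 (chr4:156200855-156200916, minus strand): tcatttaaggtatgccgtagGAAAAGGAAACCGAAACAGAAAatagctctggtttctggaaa
Bst2 (chr8:71537567-71537622, minus strand): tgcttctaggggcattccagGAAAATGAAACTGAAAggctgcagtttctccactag
Ifit3 (chr19:34583353-34583436, plus strand): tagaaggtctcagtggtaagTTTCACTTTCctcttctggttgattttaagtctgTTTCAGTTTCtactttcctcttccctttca
Ifit1 (chr19:34640765-34640833, plus strand): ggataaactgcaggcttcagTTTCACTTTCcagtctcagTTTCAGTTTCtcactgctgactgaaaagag
Stat2 (chr10:128270256-128270305, plus strand): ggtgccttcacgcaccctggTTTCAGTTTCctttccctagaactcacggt
Rsad2 (chr12:26456543-26456592, minus strand): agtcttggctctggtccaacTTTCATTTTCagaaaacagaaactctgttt
Igtp (chr11:58199502-58199551, plus strand): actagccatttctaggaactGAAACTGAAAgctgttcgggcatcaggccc
Gbp7 (chr3:142530263-142530312, plus strand): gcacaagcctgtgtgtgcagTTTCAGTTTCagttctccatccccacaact
Tgtp2 (chr11:49064253-49064302, minus strand): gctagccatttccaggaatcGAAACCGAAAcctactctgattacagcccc
Isg15 held 3 overlapping cores within 78 bases of the start, the largest number in these windows. The 84 bases of the Ifit3 window were identical to those upstream of its neighbour Ifit3b (chr19:34607749-34607832, plus strand). Igtp and Tgtp2, both p47 GTPases on chromosome 11, each carried 1 core, 34 and 70 bases before the start. By the later comparison of genotypes, the core was present in 9 of the 16 genes with an entry that rose, 3 of the 7 that fell and 4 of the 11 that did not pass the test. A match is a stretch of letters and was not tested as a binding site.

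In WT ladder libraries the set spanned levels per length from Ifitm3, a membrane protein that blocks viral fusion, at 1116 ± 166 TPM (a level per transcript length, mean ± SD, n = 4), to Epsti1 at 0.339 ± 0.0624 TPM. Next came Ifi27l2a at 848 ± 151 TPM, Bst2 (tetherin, which holds budding virions on the cell) at 683 ± 74.7 TPM and Isg15 at 482 ± 40.8 TPM. Ifitm3 and Ifi27l2a overlapped between libraries, as did Ifi27l2a and Bst2, whereas every library of Bst2 lay above every library of Isg15. Below these, Ifi27 (269 ± 32.7 TPM) and Ifit3 (173 ± 20.9 TPM) were each apart from their neighbours in the order. From Rtp4 (95.04 ± 16.9 TPM) downward the order was mostly unresolved, and over the whole set 33 of the 41 neighbouring pairs overlapped between WT libraries. In KO ladder libraries the same 4 genes led, with Bst2 at 1271 ± 133 TPM, Isg15 at 1068 ± 211 TPM, Ifi27l2a at 1184 ± 135 TPM and Ifitm3 at 1702 ± 219.7 TPM.

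The first comparison set WT ladder libraries against WT standard libraries, 2 preparations that are labelled with the same genotype and cell type. Of the 42 genes, 41 were higher in the ladder libraries and none was lower, every fitted difference being above 0 by edgeR and by DESeq2. The background for a call in that direction was 30.8% of 16131 genes tested. Calls are those of edgeR's quasi-likelihood fit at an adjusted p under 0.05 (Benjamini-Hochberg), the test behind every adjusted p given here unless another is named. Over the 41 genes the adjusted p ranged from 1.98e-07 (Isg15) to 0.0208 (Mx1). The ladder libraries lay above every standard library for the same 41 genes, against a background of 32.2% of the genes tested. The median log2 difference was 6.96 over the set, or 6.81 with the 3 genes without a standard count at their lower bound, beside 0.0046 over all genes tested. A log2 difference above 5 was called for 28 of the 42 (66.7%) and for 1.49% of all genes tested. In the standard libraries alone, 27 of the 42 (64.3%) would have passed the count filter, beside 89.6% of all genes tested. The others entered only through the ladder libraries, so for them a higher level there was in part set by the filter. Together the 42 genes took 0.0144% to 0.0169% of the scaled counts in standard libraries and 0.705% to 0.813% in ladder libraries.

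Among the regulators, Irf7, the factor that amplifies type I interferon production, held 0.553, 0.439 and 0.258 CPM in the standard libraries and 232, 222, 274 and 250.4 CPM in the WT ladder libraries, a log2 difference of 9.21 (SE 0.25, adjusted p = 2.77e-07). Irf1, Irf9 and Stat2 differed less, by 2.52, 4.24 and 1.14 on the log2 scale. Isg15, the ubiquitin-like modifier, held 0.237, 0.251 and 0.258 CPM in the standard libraries and 492, 505, 619 and 501 CPM in the ladder libraries, a ratio of means of 2130.2 that rests on 11 counts in the standard libraries. All standard libraries lay near a single level far below the ladder libraries. Its protease Usp18 was 401-fold higher, its activating enzyme Uba7 had 3 standard counts in all and a ratio of 641 (95% counting interval 219 to 3109), and its ligases Herc6 and Trim25 differed 13.1-fold and 8.34-fold. For Trim25, the first standard library (4.34 CPM) stood below the other standard libraries (15.6 and 20.1 CPM).

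The IFIT proteins, which bind viral RNA ends, showed the sparsest standard counts. Ifit3 held 0.079, 0.0626 and 0 CPM in the standard libraries, 2 counts in all, and 466, 500.3, 535 and 507 CPM in the ladder libraries, a ratio of 11084 (95% counting interval 3068 to 91523). Ifit3b and Ifit1 had 2 and 1 standard counts and ratios of 3280.4 (95% counting interval 908 to 27087) and 445 (95% counting interval 79.9 to 17586), while Ifit2 was measured in both at 8.93 ± 0.592 and 95.2 ± 16.7 CPM. Ifit3 and Ifit3b are near-identical neighbours whose reads the counting may have split. Among the GTPases, no standard read was assigned to Tgtp2, so its 25.2 CPM in ladder libraries was at least 371-fold higher if 3 counts are taken as the floor of the group, a limit for counting error only. Irgm1, a GTPase of autophagy and pathogen clearance, held 7.35, 4.39 and 6.96 CPM in the standard and 187, 192, 212 and 201 CPM in the ladder libraries. Igtp, Mx2 and Gbp2 were 105-, 84.7- and 234-fold higher, and Gbp7 12.5-fold. Mx1 differed by 1.01 (SE 0.31, adjusted p = 0.0208), a call lost without standard library 3 or without ladder library 1 or 4 (adjusted p = 0.0609, 0.0737 and 0.0513). Gbp3 was the 1 gene not called, at 24.3, 5.58 and 4.51 CPM in standard and 19.4, 19.7, 29.9 and 21.9 CPM in ladder libraries. Its first standard library lay within the ladder libraries, and without it the difference was 2.19 with an adjusted p of 7.48e-05.

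Oasl2, of the oligoadenylate synthase-like family, held 0.079, 0.188 and 0.515 CPM in the standard libraries and 383, 349.9, 527 and 457 CPM in the ladder libraries. Oasl1, Rsad2 (viperin), Cmpk2 and Samd9l were 299.7-, 97.6-, 15.4- and 176-fold higher in ladder libraries. Ifitm3, the member of highest TPM in WT ladder libraries, held 17.2, 25.1 and 29.1 CPM in the standard and 883, 1010.2, 1291 and 1071 CPM in the ladder libraries, and Bst2 held 3.40, 4.26 and 9.53 CPM in the standard and 698, 742, 919 and 776 CPM in the ladder libraries. The values of these membrane genes rested on 1070 and 259 standard counts, and the groups were far apart for both. Lgals3bp, a secreted glycoprotein, and Rtp4, a receptor chaperone, were 129- and 383-fold higher, and Apol9a, without a standard count, at least 633-fold. Of the ADP-ribosylation genes, Parp14 was 87.8-fold, Parp9 18.2-fold and its ubiquitin ligase partner Dtx3l 6.70-fold higher. Ifi27l2a held 2 standard counts and a ratio of 10487 (95% counting interval 2903 to 86595), and Trim30a and Ifi44 3 each, with ratios of 1095 (95% counting interval 375 to 5311) and 1667 (95% counting interval 571 to 8086). Ifi27, Xaf1, Ifi35 and Sp100 were 631-, 119-, 81.4- and 7.25-fold higher, and Epsti1 at least 15.3-fold.

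**Figure D1:**
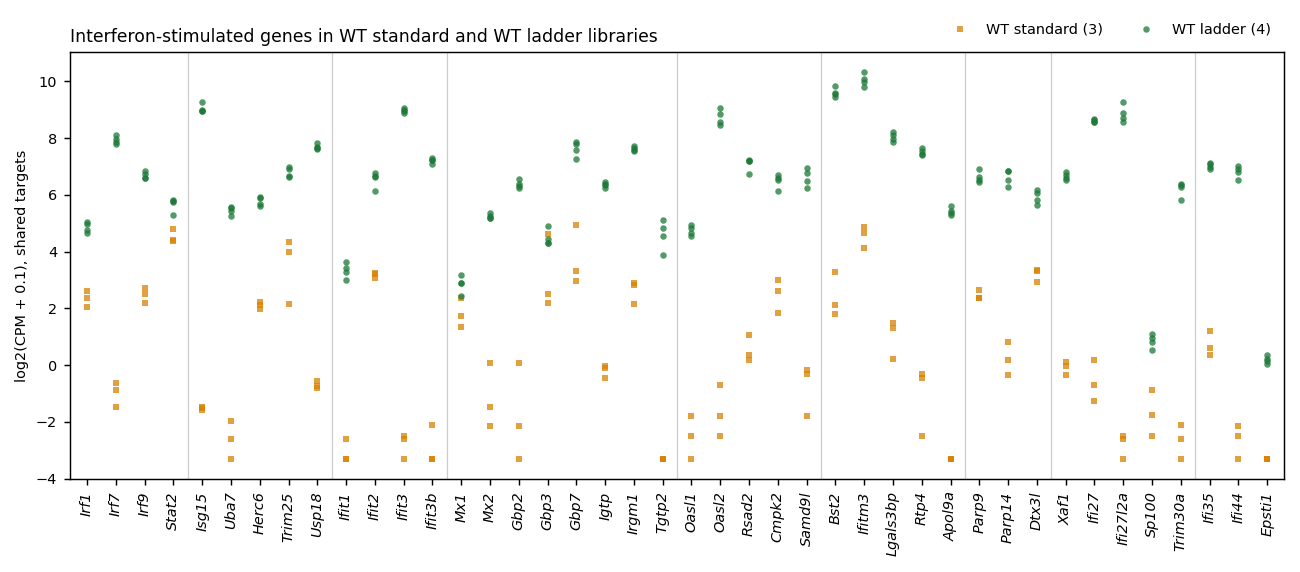
Level of each of the 42 genes on the log2(CPM + 0.1) scale over shared targets, in 3 WT standard libraries (squares) and 4 WT ladder libraries (circles), with vertical lines between roles. The ladder libraries lie above all standard libraries for 41 genes, and Gbp3 overlaps through 1 standard library.

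Of the set, 27 of 42 would have passed the filter in the standard libraries alone, against 14453 of the 16131 genes tested, so the set tested holds 15 genes that entered through the ladder libraries. Separation into bands, read length, sequencer, depth and the list of targets counted differ together between these groups, and culture may. They cannot be told apart. In each WT ladder library 11338 assembled targets outside the annotation took 12.9% to 13.4% of the estimated counts. The standard libraries had 0 such targets. Counts on these targets are not in the gene sums. The deposited TPM is another scale, on which most genes were lower in ladder libraries. On it, 11603 of the 16131 genes tested had all ladder libraries below all standard libraries. There the median log2 difference was 4.80 over the 42 genes and -1.56 over all genes tested, and 38 of the 42 had all ladder libraries above all standard libraries, beside 6.26% of all genes. Stat2 was lower on the TPM scale (8.44 ± 1.99 TPM in ladder and 14.5 ± 1.73 TPM in standard libraries), so its direction depends on the scale, while Mx1, Gbp3 and Sp100 overlapped. The log2 difference of Stat2 there, -0.77, lay above the median of all genes tested. The microglia and macrophage list summed to 2.90 to 3.79 CPM over 14 genes in standard and 9.27 to 10.5 CPM in ladder libraries, of which Cd68 made 7.18 to 8.62, with C1qa, C1qb and C1qc at 0 in the ladder libraries. Of its 5 tested genes, Cd68 and Trem2 were called higher in ladder libraries and Csf1r lower. The endothelial list summed to 761 to 1734 CPM in standard libraries, nearly all of it Pecam1 (751 to 1727 CPM), and to 9.93 to 13.1 CPM in ladder libraries. Without Pecam1 it summed to 4.50 to 10.6 CPM in standard and 8.92 to 12.1 CPM in ladder libraries. Of its 6 tested genes, Kdr and Flt1 were called higher in ladder libraries and Pecam1 and Tie1 lower. The mural and fibroblast list summed to 18.2 to 50.7 CPM in standard and 2.39 to 3.16 CPM in ladder libraries. The progenitor list summed to 4591 to 6068 CPM in standard and 10617 to 11273 CPM in ladder libraries. Of its 8 genes, 5 were called higher in ladder libraries and 2 lower. Those lower were Nes, at 933 ± 99.3 CPM in standard and 242 ± 52.4 CPM in ladder libraries, and Sox2. The part of these cell type genes in the result was not tested.

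Other genes of the pathway, listed apart from the 42, were compared between the same library types, with 10 of the 25 tested called higher and none lower, beside 30.8% higher and 30.3% lower of all genes tested. Of the ligands, Ifnb1 had no standard count and 0.981, 0.828, 0.879 and 1.11 CPM in the ladder libraries, at least 14.0-fold higher, and Ifna4 at least 2.43-fold, and the other 8 ligand genes did not pass the filter. Of 6 receptor genes 1 was called, Ifnar2 (17.2 ± 2.06 and 53.0 ± 2.10 CPM), and Ifnar1, Ifngr1 and Ifngr2 differed by 0.13, 0.36 and 0.0024 on the log2 scale. Of 8 kinases and factors 5 were higher, among them Stat3, a factor downstream of many cytokines, which held 242, 113 and 124 CPM in the standard and 360.1, 380.2, 294 and 397 CPM in the ladder libraries. Of 9 inhibitors 2 were higher, Socs1 (0.726 ± 0.319 and 5.16 ± 0.249 CPM) and Socs3 (4.74 ± 2.54 and 20.3 ± 5.58 CPM). Both are feedback brakes on these kinases.

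Nanopore assemblies from StringTie gave a further measure of the set, with 1 pooled value per genotype and chemistry and so no replicate error. In them Mettl14 itself was at 19.8 TPM in WT and 13.7 TPM in KO native RNA. In direct cDNA it was at 1.68 TPM in both genotypes, so the fall seen in ladder libraries was not seen there. Summed over the 42 genes, the level was 132 TPM in WT native RNA and 209 TPM in KO native RNA, and 9.57 and 21.7 TPM in direct cDNA. The ladder libraries summed to 3824 to 4950 TPM in WT and 6604 to 8082 TPM in KO, and the standard WT libraries to 153 to 207 TPM, all from tables normalised separately. Of the genes at 10 TPM or more in WT ladder libraries, 17 of 28 members (60.7%) were listed at 0 in WT native RNA, beside 2.27% of 4753 genes, and 14 of 28 in WT cDNA, beside 1.07%. For KO, 18 of 29 members were listed at 0 in native RNA, beside 4.25% of 5223 genes, and 17 of 29 in cDNA, beside 1.38%. A gene counts as listed at 0 here when no assembled transcript shares an annotated intron with it. Over all 42 genes, 27 were at 0 in WT and 28 in KO native RNA. With any exon overlap on the strand counted, these numbers were 21 and 23. In cDNA, 23 were at 0 in WT and 27 in KO by either rule. These are listings at 0 in assemblies whose depth is not known from the files, which does not show that the RNA was absent. Ifitm3 led in all of them, at 43.7 TPM in WT and 99.8 TPM in KO native RNA and 3.52 and 12.7 TPM in cDNA. Bst2 held 26.0 and 24.5 TPM, Irgm1 17.6 and 19.8 TPM, and Rtp4 2.72 and 13.2 TPM in WT and KO native RNA. Isg15 was listed at 0 in both native assemblies and at 0.0946 and 0.291 TPM in WT and KO cDNA. Ifit1, Ifit3, Ifit3b, Oasl1, Oasl2, Mx1, Tgtp2, Rsad2, Samd9l, Apol9a, Parp14, Xaf1, Sp100, Trim30a, Ifi44 and Epsti1 were at 0 in all 4 assemblies, also when any exon overlap on the strand was counted.

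**Figure D2:**
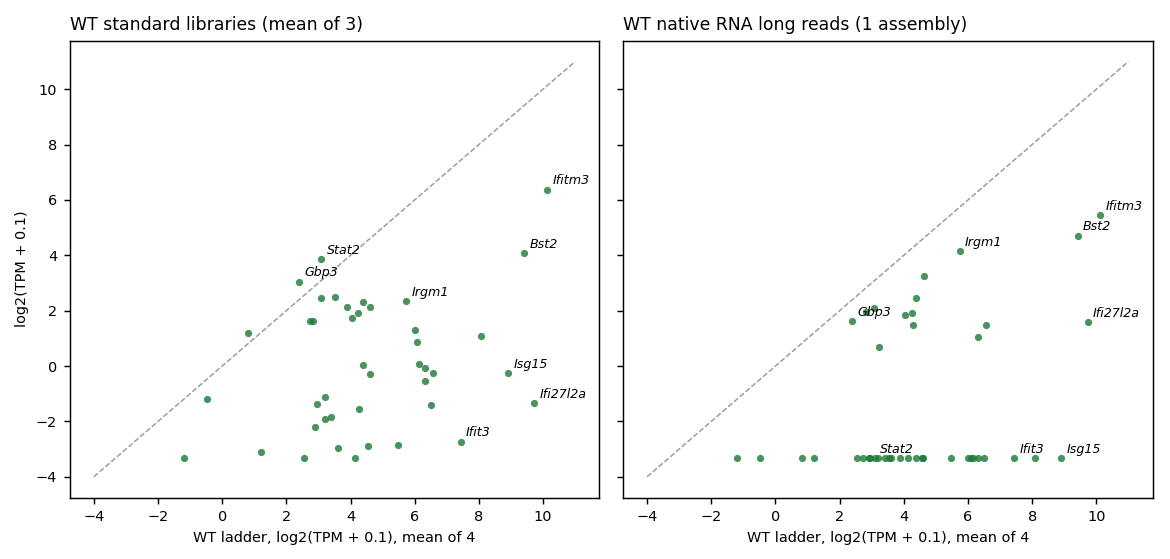
WT level per gene in log2(TPM + 0.1), with the mean of 4 ladder libraries on the x axis against the mean of 3 standard libraries (left) and the native RNA assembly (right) for the 42 genes, and the dashed line marking equal values. Most genes lie far below the line in both panels, and genes at the bottom of the right panel are listed at 0.

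The second comparison set KO against WT within the ladder libraries. Of the 42 genes, 17 rose, 9 fell and 16 did not pass the test, so 26 (61.9%) were called, beside 53.6% of the 18687 genes tested. By direction, 26.4% of all genes tested rose and 27.2% fell. The median log2 change was 0.19 over the 42 genes and -0.03 over all genes tested. The libraries of the genotypes did not overlap for 24 of the 42 (57.1%), beside 49% of all genes tested. The share called lies near that of all genes, so no result about the set is read from it. Within the set, 5 of 9 roles held genes that rose and genes that fell, and all 5 genes of membrane and secreted proteins rose. Exons of 16 of the 42 overlap those of another annotated gene, by up to 1269 bp (Herc6 with Gm45193), so reads there may have been split, as for Gbp7 with a processed pseudogene over 637 bp.

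Of the regulators 3 rose and 1 did not pass. Irf7 held 188, 177, 212 and 205 CPM in the 4 WT and 267, 269.9, 292 and 248 CPM in the 4 KO libraries, without overlap, and rose by 0.46 (SE 0.11, adjusted p = 0.00323) on the log2 scale. Stat2, the subunit that gives the type I complex its activation domain, held 46.0, 43.9, 30.3 and 43.7 CPM in WT and 61.2, 65.5, 74.1 and 53.5 CPM in KO libraries and rose by 0.63 (SE 0.15, adjusted p = 0.00377). WT library 3 was the lowest of its group for Stat2. Irf9, the DNA-binding subunit, held 77.8, 76.1, 87.7 and 86.8 CPM in WT and 92.8, 102, 109 and 96.5 CPM in KO libraries and rose by 0.29 (SE 0.10, adjusted p = 0.0307). Its groups did not overlap, but the call was lost without WT library 1, 2 or 4 or KO library 2 or 3 (adjusted p = 0.0941, 0.0638, 0.0531, 0.0772 and 0.0783). Irf1 was at 23.2 ± 2.96 and 23.0 ± 0.688 CPM (SD, n = 4 each), a log2 difference of -0.02 (SE 0.11, adjusted p = 0.909).

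Isg15 rose, Herc6 fell and the other 3 genes of its conjugation did not pass. Isg15 held 399.5, 403, 479.8 and 409.7 CPM in WT and 821, 718, 744 and 1308 CPM in KO libraries and rose by 1.09 (SE 0.19, adjusted p = 0.000481). The groups did not overlap, and KO library 4 was far above the other KO libraries. Without that library the log2 change was 0.85 (adjusted p = 0.00013). Herc6, the main Isg15 ligase of the mouse, went the other way, from 48.2, 48.9, 37.4 and 42.04 CPM to 22.9, 20.8, 20.6 and 16.9 CPM, and fell by 1.12 (SE 0.13, adjusted p = 1.85e-05). Every KO library lay below every WT library. Uba7 differed by -0.21 (SE 0.11, adjusted p = 0.130), Trim25 by -0.10 (SE 0.11, adjusted p = 0.487) and Usp18 by 0.02 (SE 0.09, adjusted p = 0.879). Uba7 was called lower without WT library 2 (log2 change -0.28, adjusted p = 0.0496).

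The 4 IFIT genes sit side by side on chromosome 19 within 99.3 kb (GRCm38, 34550694 to 34650009) and went in different directions. Ifit3 held 379, 399, 415 and 414 CPM in WT and 591, 600.0, 608 and 543 CPM in KO libraries and rose by 0.54 (SE 0.10, adjusted p = 0.000852). Ifit3b held 109.7, 119.7, 123 and 123 CPM in WT and 230.0, 248, 240.4 and 228 CPM in KO libraries and rose by 0.99 (SE 0.10, adjusted p = 5.55e-06). Both were tight within each genotype and did not overlap between them, although reads of this near-identical pair may be split between them. Ifit2 fell, from 88.6, 80.8, 55.1 and 81.3 CPM to 42.5, 43.8, 46.4 and 33.5 CPM, with a log2 change of -0.88 (SE 0.16, adjusted p = 0.000605). WT library 3 was the lowest WT value and still lay above every KO library. Ifit1 was low in both, at 8.05 ± 1.36 and 9.24 ± 2.19 CPM, and differed by 0.20 (SE 0.17, adjusted p = 0.354).

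The GTPases held large changes in both directions. Irgm1 held 152, 153, 164 and 164 CPM in WT and 432, 471, 485 and 448 CPM in KO libraries and rose by 1.53 (SE 0.10, adjusted p = 3.09e-07). Tgtp2, a GTPase induced by interferon gamma, held 22.8, 27.8, 18.1 and 11.9 CPM in WT and 6.19, 6.06, 6.29 and 5.96 CPM in KO libraries and fell by 1.72 (SE 0.21, adjusted p = 3.67e-05). The KO libraries of Tgtp2 were almost equal, and the WT libraries were spread widely, all above them. Its near-identical copy Tgtp1, to which reads could have been assigned, was at 9.58 and 8.19 CPM with an adjusted p of 0.100. Of the guanylate-binding proteins on chromosome 3, Gbp2 held 62.1, 63.8, 73.1 and 68.6 CPM in WT and 38.4, 47.2, 46.3 and 42.9 CPM in KO libraries and fell by 0.62 (SE 0.11, adjusted p = 0.000458). Gbp7 held 178, 184, 149 and 125 CPM in WT and 135, 115, 106 and 100.1 CPM in KO libraries and fell by 0.48 (SE 0.14, adjusted p = 0.015), with KO library 1 inside the WT range. Gbp3 differed by 0.04 (SE 0.22, adjusted p = 0.893), Mx1 by 0.04 (SE 0.17, adjusted p = 0.874) and Mx2, the other dynamin-like GTPase, by 0.05 (SE 0.09, adjusted p = 0.693). Igtp was at 65.6 ± 3.10 and 74.1 ± 2.89 CPM without overlap, yet its difference of 0.18 (SE 0.09, adjusted p = 0.118) did not pass, and it did in DESeq2 (adjusted p = 0.0492).

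Both Oasl genes rose. Oasl2 held 311, 279, 409 and 373 CPM in WT and 512, 645, 638 and 592 CPM in KO libraries and rose by 0.80 (SE 0.14, adjusted p = 0.000634). Oasl1 held 20.2, 18.5, 23.6 and 23.2 CPM in WT and 39.1, 41.8, 46.4 and 42.4 CPM in KO libraries and rose by 0.99 (SE 0.11, adjusted p = 1.67e-05). For both, every KO library lay above every WT library. Samd9l, a translation regulator that restricts poxviruses, fell from 98.9, 87.7, 68.7 and 61.9 CPM to 42.7, 36.6, 30.8 and 31.2 CPM, with a log2 change of -1.17 (SE 0.16, adjusted p = 0.000113). Rsad2 (viperin), which makes the antiviral nucleotide ddhCTP, and its neighbour Cmpk2, a nucleotide kinase, differed by 0.11 (SE 0.15, adjusted p = 0.564) and 0.27 (SE 0.13, adjusted p = 0.109).

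All 5 membrane and secreted genes rose without overlap between the genotypes. Ifitm3 held 718, 806, 1002 and 875 CPM in WT and 1166, 1074, 1037 and 1669 CPM in KO libraries and rose by 0.54 (SE 0.17, adjusted p = 0.019). Bst2 held 567, 592, 713 and 634 CPM in WT and 1094, 964, 899 and 1475 CPM in KO libraries and rose by 0.82 (SE 0.16, adjusted p = 0.00124). In both, KO library 4 was the highest by a wide margin, and without it the log2 changes were 0.37 and 0.66 (adjusted p = 0.0337 and 0.00116). The call of Ifitm3 was lost without WT library 1 or 4 (adjusted p = 0.0593 and 0.0647). Rtp4 held 151, 158, 129.9 and 140.0 CPM in WT and 375, 401, 353 and 437 CPM in KO libraries and rose by 1.44 (SE 0.11, adjusted p = 1.27e-06). Lgals3bp held 202, 187, 229.8 and 227 CPM in WT and 346, 360.5, 396 and 346 CPM in KO libraries and rose by 0.77 (SE 0.11, adjusted p = 0.000124). Apol9a held 35.6, 38.9, 32.3 and 31.8 CPM in WT and 84.3, 97.5, 85.8 and 109 CPM in KO libraries and rose by 1.44 (SE 0.12, adjusted p = 1.52e-06). In these 3 genes every KO library lay far above the WT libraries. Reads of Apol9a may be shared with its copy Apol9b, which changed alike, from 23.7 to 72.7 CPM with an adjusted p of 5.46e-07.

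The 3 ADP-ribosylation genes lie together on chromosome 16 within 139.7 kb and split. Parp9 held 79.7, 94.7, 67.5 and 74.8 CPM in WT and 53.1, 55.9, 43.2 and 45.2 CPM in KO libraries and fell by 0.68 (SE 0.13, adjusted p = 0.001). Dtx3l, which forms a ubiquitin ligase with Parp9, held 58.6, 53.9, 43.3 and 40.8 CPM in WT and 72.2, 64.9, 62.6 and 60.9 CPM in KO libraries and rose by 0.41 (SE 0.13, adjusted p = 0.0203). Parp14, a mono-ADP-ribosyltransferase, held 93.3, 91.0, 70.9 and 62.5 CPM in WT and 71.8, 60.2, 54.3 and 56.0 CPM in KO libraries and fell by 0.39 (SE 0.15, adjusted p = 0.0417). Parp9 and Dtx3l did not overlap between genotypes, and Parp14 did. The call of Dtx3l was lost without WT library 3 or 4 or KO library 1 (adjusted p = 0.0516, 0.0633 and 0.0567), and that of Parp14 without WT library 1 or 2 or KO library 2, 3 or 4 (adjusted p = 0.127, 0.0959, 0.0886, 0.110 and 0.099). Parp9 and Dtx3l are transcribed away from each other and share 458 bp of exon on opposite strands, and the sources used here do not say whether counting used strand.

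Of the remaining genes, Ifi27l2a, a small mitochondrial protein, held 310.3, 336, 483 and 388 CPM in WT and 480.4, 406, 470.4 and 636 CPM in KO libraries, and its difference of 0.39 (SE 0.17, adjusted p = 0.0735) did not pass. WT library 3 and KO library 4 were the highest of their groups, and the gene was called higher without WT library 3 or KO library 2 (log2 change 0.53 and 0.49, adjusted p = 0.0203 and 0.0462), in DESeq2 (adjusted p = 0.0433) and with no count filter in edgeR (adjusted p = 0.0301). Ifi27 was at 313 ± 14.1 and 313 ± 83.3 CPM, a log2 difference of 0.0043 (SE 0.16, adjusted p = 0.985), with KO library 4 again the highest. Xaf1, an apoptosis factor, differed by 0.33 (SE 0.14, adjusted p = 0.0609) and was called higher without KO library 3 (adjusted p = 0.0208), in DESeq2 (adjusted p = 0.0294), and in edgeR with DESeq2's size factors or with no count filter (adjusted p = 0.0423 and 0.026). Trim30a held 67.8, 64.7, 43.9 and 62.5 CPM in WT and 76.8, 84.5, 83.9 and 65.8 CPM in KO libraries and rose by 0.38 (SE 0.14, adjusted p = 0.0433). Its WT library 1 lay above KO library 4, and the call was lost without WT library 3 or 4 or KO library 1, 2 or 3 (adjusted p = 0.0841, 0.0595, 0.0696, 0.106 and 0.0945). Sp100, a nuclear body protein, was low but apart, at 1.09, 1.31, 1.59 and 1.50 CPM in WT and 1.99, 2.11, 2.41 and 2.26 CPM in KO, and rose by 0.67 (SE 0.14, adjusted p = 0.002). Ifi35 held 109, 112, 92.8 and 103 CPM in WT and 107, 103, 90.5 and 133 CPM in KO libraries, which overlapped, and Ifi44 was at 90.9 ± 14.1 and 84.0 ± 10.3 CPM, with log2 differences of 0.05 (SE 0.13, adjusted p = 0.746) and -0.11 (SE 0.14, adjusted p = 0.508). Epsti1 fell from 0.837 ± 0.104 to 0.26 ± 0.0475 CPM, by 1.68 on the log2 scale (SE 0.18, adjusted p = 1.1e-05).

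**Figure D3:**
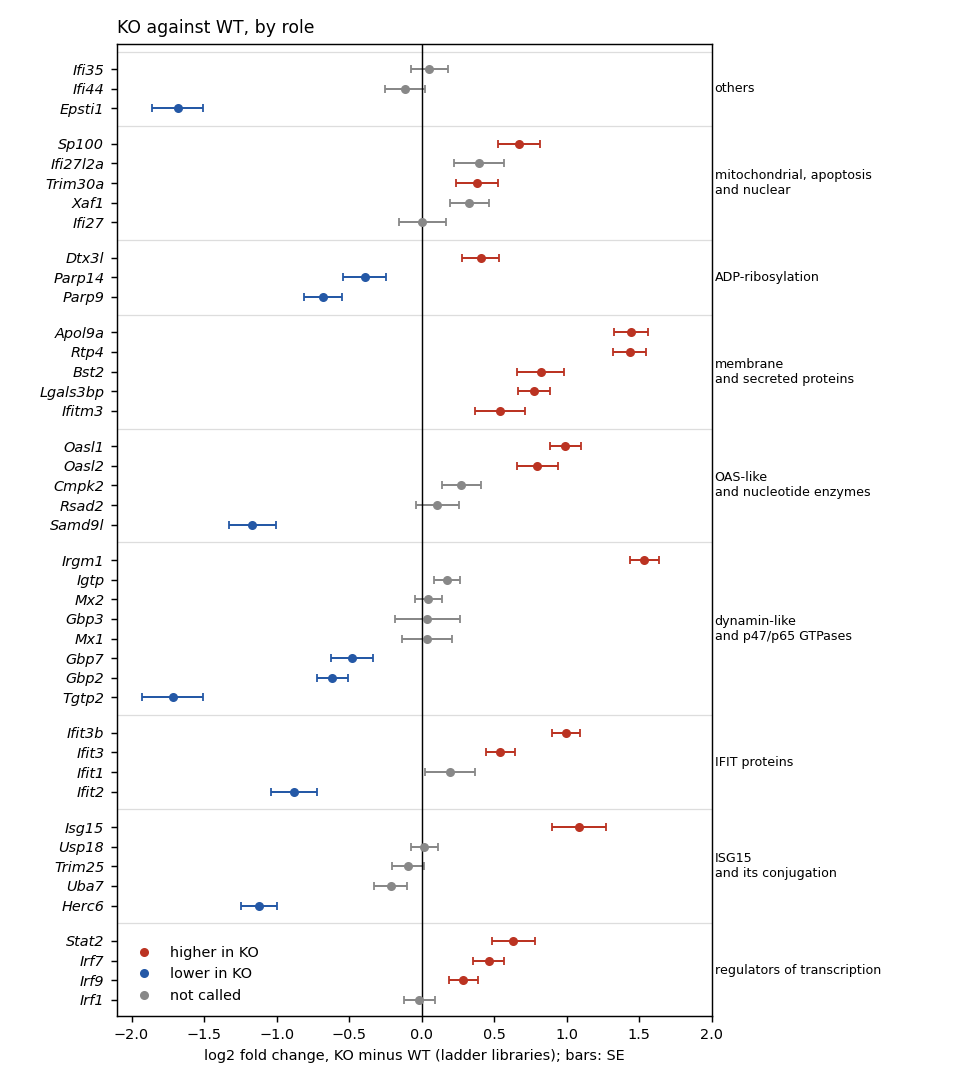
Log2 fold change of KO minus WT ladder libraries for the 42 genes, grouped by role, with bars of 1 SE and colours for the call at an adjusted p under 0.05. The membrane and secreted genes lie right of 0, and the other roles hold genes on both sides or near 0.

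Because the ladder protocol parts RNA by length, the change of each gene was set beside its transcript length, weighted by transcript abundance over the 8 ladder libraries. Of the 16 genes under 2000 bp, 9 rose, 1 fell and 6 did not pass, with a median log2 change of 0.50. Among the 26 longer genes 8 rose, 8 fell and 10 did not pass, with a median of 0.04. Over all genes tested, 23.0% of 7576 shorter and 28.6% of 11111 longer genes rose, and 27.0% and 27.4% fell. Their median log2 changes were -0.05 and -0.02. Across the 42 genes, which share the same 8 libraries, log2 length and log2 change had a Pearson r of -0.42 and a Spearman rho of -0.50, and across all genes tested 0.02 and 0.01, given as descriptions across genes, which are not replicates.

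Single libraries varied with length too. KO library 4 minus the mean of the other KO libraries, in log2(CPM + 0.1), had a Pearson r with log2 length of -0.82 over the 42 genes and -0.40 over all genes tested. Its deviation was 0.78 for Isg15 (756 bp), 0.67 for Ifi27 (949 bp) and 0.61 for Ifitm3 (678 bp). It was -0.42 for Rsad2 (3774 bp) and -0.40 for Ifit2 (3734 bp). Over all genes tested, the median deviation went from 0.36 in the shortest of 10 bins to -0.15 in the longest. WT library 3, set against the other WT libraries, leaned the same way, with r of -0.47 over the 42 genes and -0.26 over all genes. For WT library 4 these were -0.29 and -0.12. WT libraries 1 and 2 and KO libraries 1 to 3 leaned the opposite way. Their r was 0.27 (KO library 1) to 0.73 (KO library 2) over the 42 genes and 0.15 to 0.21 over all genes. Without KO library 4, 17 of the 42 genes rose and 8 fell, Parp14 being the fall that was lost. The part of length in the genotype differences was not tested.

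**Figure D4:**
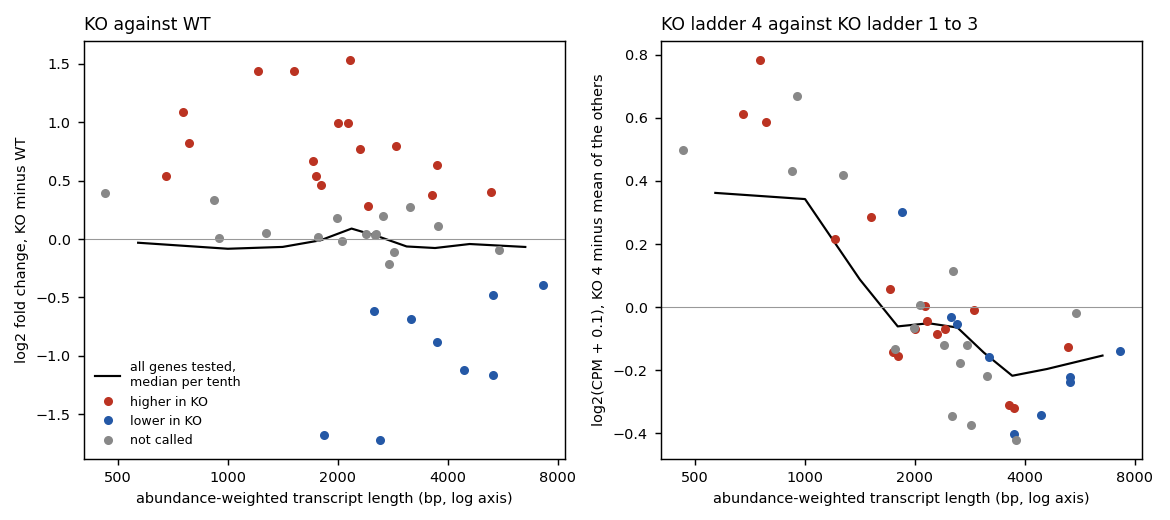
Abundance-weighted transcript length (log axis) against the log2 change of KO minus WT (left) and against KO library 4 minus the mean of KO libraries 1 to 3 (right) for the 42 genes, coloured by call, with the median of all genes tested in 10 bins of length as a line. The short genes lie high in the right panel, as does the line, while the line in the left panel stays near 0.

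The other genes of the pathway also moved in both directions in KO. Both ligands that passed the filter rose. Ifna4 went from 0.139, 0.16, 0.0737 and 0.159 CPM to 0.5, 0.403, 0.485 and 0.503 CPM (1.83 on the log2 scale, SE 0.23, adjusted p = 4.78e-05), and Ifnb1 from 0.797, 0.661, 0.682 and 0.91 CPM to 1.64, 1.80, 1.39 and 2.48 CPM (1.26, SE 0.19, adjusted p = 0.000196). Both stayed at very low level, and Ifng had no count in any ladder library. The background was 26.4% of all genes called higher and 27.2% called lower, and several of the counts that follow are near it. Of 6 receptor genes 5 rose and none fell. The largest rise was Ifngr1, from 18.5, 16.3, 20.5 and 21.2 CPM to 52.9, 59.2, 60.01 and 55.7 CPM (adjusted p = 4.88e-07), and the most abundant per length, Ifnar2, went from 42.5 ± 2.20 to 57.9 ± 7.49 CPM (adjusted p = 0.00535). Of 8 kinases and factors 1 rose, Irf3, the sensor-activated inducer of Ifnb1, from 35.9, 38.9, 37.9 and 35.9 CPM to 63.6, 69.3, 66.4 and 75.1 CPM (adjusted p = 1.4e-05), and 4 fell. Stat3 fell by 0.56 (SE 0.13, adjusted p = 0.00423), from 293, 303, 228 and 324 CPM to 188, 198, 222 and 170.0 CPM, and Irf5 fell by 0.79 (adjusted p = 0.00821) at 0.541 ± 0.122 and 0.313 ± 0.0644 CPM. Of 9 inhibitors 4 rose and 2 fell. Ptpn6, a phosphatase of these kinases, rose by 1.80 (adjusted p = 1.22e-06) at 0.368 ± 0.0502 and 1.29 ± 0.0595 CPM, Socs3 fell by 0.86 (adjusted p = 0.00216), and Ptpn11 differed by 0.19 (SE 0.11, adjusted p = 0.160).

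Genes of other cell types were low in both genotypes. The microglia and macrophage list summed to 7.54 to 8.39 CPM in WT and 5.92 to 7.21 CPM in KO ladder libraries, with C1qa, C1qb and C1qc at 0 in all 8. Most of this sum was Cd68 (6.20 ± 0.456 and 4.44 ± 0.507 CPM), called lower. Of the 5 genes of this list that were tested, 2 were called higher, P2ry12 (1.06 ± 0.204 and 1.62 ± 0.248 CPM) and Csf1r (0.0495 ± 0.02 and 0.184 ± 0.0653 CPM). The endothelial list summed to 8.11 to 10.5 and 5.91 to 6.56 CPM. Flt1 (4.33 ± 0.501 and 0.323 ± 0.0986 CPM) and Kdr were called lower, while the other 4 of its 6 tested genes, Pecam1, Tek, Tie1 and Emcn, were called higher. The mural and fibroblast list summed to 1.85 to 2.52 and 7.76 to 8.59 CPM, with 6 of its 7 tested genes called higher. The progenitor list summed to 8499.8 to 8991 and 6049.9 to 6983 CPM, most of it Fabp7 and Vim, which were called lower. Nes, an intermediate filament gene of the same list, was called higher (194 ± 45.9 and 430.3 ± 106 CPM, adjusted p = 0.000617), and Sox2, Pax6, Hes1, Hes5 and Slc1a3 did not pass the test. The part of these lists in the changes of the 42 genes was not tested.

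Transcript usage, the share of a gene's counts held by each of its transcripts, was compared in the same ladder libraries. Of 33 members with at least 2 transcripts tested, 10 were called (30.3%), beside 19.6% of 10532 genes. For several of them the share moved little, as in Lgals3bp, where no transcript moved by more than 0.119 percentage points. Its call, and those of Mx1, Xaf1 and Stat2, were lost when single libraries were left out (highest adjusted p 0.886, 0.221, 0.196 and 0.178). Oasl2, Irgm1, Parp9, Igtp, Apol9a and Ifi44 remained called in all 8 such tests.

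Parp9 had the largest shift of the 33. Its transcript Parp9-201 held 51.2, 72.8, 61.6 and 61.5% of the gene's counts in the WT ladder libraries and 2.74, 1.48, 12.4 and 0.299% in the KO ladder libraries. The groups were far apart, with KO library 3 the highest of the KO libraries. The share fell by 57.5 percentage points, from 61.8 ± 8.85% to 4.24 ± 5.56% (SD, n = 4 each, 2-sided exact permutation p = 0.0286, the smallest that 70 arrangements allow). Parp9 was singled out for its transcript shares beforehand, and the set was chosen with earlier results of these data known. This permutation p therefore describes the separation of the libraries and adds no independent support. Parp9-203 held 48.2, 23.7, 36.7 and 37.2% in WT and 96.3, 97.6, 86.5 and 99.0% in KO. In counts, Parp9-201 went from 49.3 ± 13.3 to 1.95 ± 2.35 CPM and Parp9-203 from 28.4 ± 7.04 to 46.9 ± 7.58 CPM (mean ± SD), so the 2 transcripts moved in opposite directions. The gene's adjusted p for usage was 7.69e-05. The WT standard libraries held 63.0, 46.7 and 63.4% of Parp9-201, within or near the range of the WT ladder libraries, though from 240 counts in all.

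The annotation places these transcripts on the plus strand of chromosome 16 (GRCm38). Parp9-203 starts at 35938470 and carries an exon 3 of 34 bp (35943369 to 35943402, coding) that Parp9-201 skips. Since 34 leaves a remainder of 1 when divided by 3, the reading frames differ, and the annotated start codon of Parp9-201 is at 35948151 instead of 35941121, which leaves 597 codons in place of 830. The sequences across the exon are shown because they are what parts the transcripts, with the skipped exon in capitals and 13 bases of each neighbouring exon in lower case.
Parp9-203: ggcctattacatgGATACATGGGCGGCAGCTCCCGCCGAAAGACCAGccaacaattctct
Parp9-201: ggcctattacatgccaacaattctct
The first exon differs too. Parp9-203 has 541 bp there that Parp9-201 lacks, of which 317 bp overlap the first exon of Dtx3l on the other strand, where reads of the 2 genes cannot be told apart unless strand was used. Dtx3l itself rose in KO, as given above. Of the long-read assemblies, 1 FLAIR transcript of WT cDNA matched all introns of Parp9-203. Another, of KO cDNA, contained at least 1 junction of the 34 bp exon but matched no annotated transcript in full. None of the 8 assemblies contained the junction that skips the exon.

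**Figure D5:**
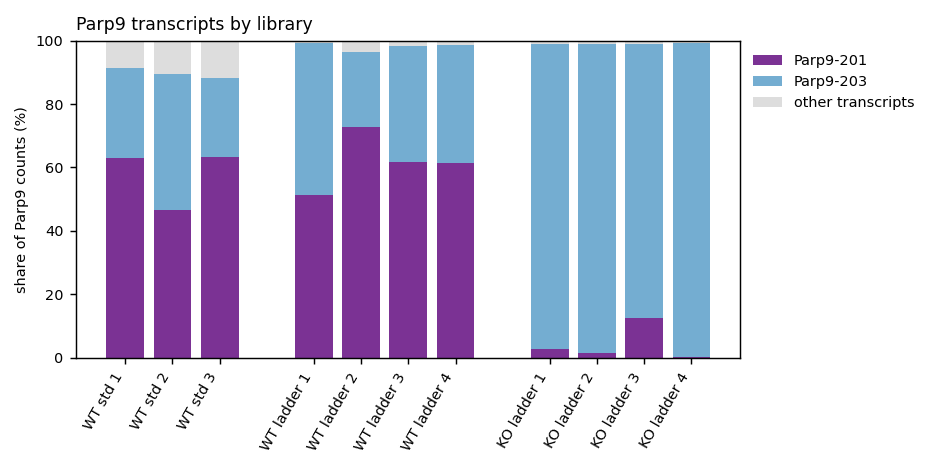
Share of Parp9 counts (percent) held by Parp9-201, Parp9-203 and all other transcripts in each standard (std) and ladder library. Parp9-201 holds 46.7% to 72.8% in the WT libraries of both kinds and 0.299% to 12.4% in the KO libraries.

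Oasl2 lost share from a transcript annotated as a target of nonsense-mediated decay. Oasl2-205 held 31.9, 25.4, 13.1 and 18.9% in WT and 7.02, 6.48, 4.05 and 5.63% in KO, without overlap, and went from 73.6 ± 18.9 to 34.2 ± 6.61 CPM, while the protein-coding Oasl2-201 went from 267 ± 72.1 to 561 ± 62.7 CPM (adjusted p for usage 1.34e-07). Igtp went the other way in its minor transcripts. Igtp-202 held 1.83, 2.34, 2.35 and 1.70% in WT and 2.87, 10.8, 19.1 and 8.13% in KO, and Igtp-203 1.21, 1.39, 0.937 and 0.592% and 2.62, 5.37, 6.94 and 7.66% (adjusted p 0.000437). KO library 1 was the lowest KO library for both, above the WT range. Irgm1-203, a non-coding transcript, held 1.11, 1.52, 1.12 and 1.129% in WT and 0.247, 0.212, 0.206 and 0.224% in KO, and the coding Irgm1-202 50.0, 49.5, 47.6 and 45.6% and 58.4, 55.8, 57.3 and 57.7% (adjusted p 3.63e-05). Apol9a-202 held 23.7, 30.1, 33.0 and 30.9% in WT and 40.7, 43.7, 43.9 and 43.2% in KO (adjusted p 0.00094, and 0.0506 without the filter on low transcripts), with reads that may be shared with Apol9b. In Ifi44, the intron-retaining Ifi44-203 held 1.90, 1.84, 1.88 and 1.52% in WT and 0.603, 0.408, 0.647 and 0.705% in KO (adjusted p 0.00146).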

How the data were processed

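RNA of neural progenitor cells was measured by short reads in 4 WT and 4 KO ladder libraries and 3 WT standard libraries, and by nanopore in WT and KO native RNA and direct cDNA. Per the submitters' processing notes the tools included STAR 2.5.4b, kallisto, StringTie and minimap2 2.17, and StringTie 2.0 per the file headers. The authors deposited estimated counts and TPM per transcript for each short-read library, already joined over the bands. TPM per assembled transcript was deposited for the pooled nanopore samples, with FLAIR transcript structures, of which only coordinates (no expression value) were used from the files the authors deposited. How bands were joined and whether counting used strand are not given in the sources used here.

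Estimated counts were summed per GENCODE M21 gene, rounded and tested with edgeR 4.0.16 (TMM scaling, default count filter, robust quasi-likelihood test, Benjamini-Hochberg adjustment over all genes tested, threshold 0.05), in R 4.3.3. The comparison of library types used targets shared by all 11 short-read files. Assembled targets outside the annotation, with 11.9% to 13.4% of the counts of each ladder library, were left out of gene sums and transcript shares. Transcript usage was tested with edgeR's diffSpliceDGE and the Simes method per gene, and the Parp9 share with an exact permutation test (scipy 1.17.1). CPM is scaled to the TMM-adjusted library size. Nanopore TPM was summed over transcripts that share an annotated intron with a gene. The tests were checked on simulated data. Replicates of a group differed by far more than sampling noise, with a chi-square per gene of 26.8 or more for every pair. Both comparisons share the WT ladder libraries.

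The 42 genes, roles, pathway and marker lists were chosen with earlier results of these data known. 1 gene of the pathway list is not reported here. All 42 are named, with values per library for those called with a mean of 1 TPM or more in either genotype and for the most abundant of each role. The alternatives were DESeq2 1.42.0, its size factors, no count filter, shared targets, each library left out in turn, a replicate block and, for nanopore, any exon overlap on the strand. Replicate numbers of the titles are not stated to pair the libraries, so the main tests used no pairing.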

Additional observations from a re-analysis of the deposited data

Results flagged for a closer look

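Among 86 checks of a group of 4 ladder libraries for a library far from the others, 3 met the criterion, which chance alone meets in about 1 group in 20. All 3 were in WT library 3. Its Isg15 level, 479.8 CPM, lay far above the other WT libraries (gap over range 0.874). Its Stat2 level, 30.3 CPM, lay below the other WT libraries (gap over range 0.855), as did its Rsad2 level of 82.6 CPM (gap over range 0.884). The changes of Isg15 and Stat2 in KO stayed called without this library.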

How the results depend on the processing

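For the comparison of KO with WT, 514 values of single genes under the alternatives kept their direction and their side of the threshold, 22 lost the call and 10 gained one, and none reversed. The genes called higher numbered 13 to 17 with a library left out and those called lower 8 to 9. For ladder against standard libraries, 457 values were kept, 4 lost the call and 1 gained it, and the number higher was 40 to 42 with a library left out and 38 by TPM, an alternative chosen after seeing the data. Transcript usage depended most on the setting. The gene-level F test called 21 members and 4733 genes in place of 10 and 2065, no filter on low transcripts gave 5 members, and leaving out a library gave 6 to 9, the 6 being without WT library 3 or without KO library 2. The cause was not tested. Deviations of same-numbered libraries correlated at r of -0.023 to 0.054 between genotypes and -0.019 to 0.062 between library types. Differently numbered WT and KO libraries ranged from -0.19 to 0.28. No pairing by number was seen, though these correlations cannot exclude one. With a replicate block, 16 members rose and 9 fell in KO, Irf9 losing its call (adjusted p = 0.0502), 40 were higher in ladder libraries, Mx1 losing its call (adjusted p = 0.0874), and 8 changed usage. The Parp9-201 share fell by 57.5 points in the block too, with an exact sign-flip p of 0.125, the smallest that 16 sign patterns allow. In the standard libraries 7 of the 42 genes rested on 1 to 3 counts and 3 on none, which limits the precision of their values, and the nanopore assemblies give no counts.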
